A study of Mus musculus with 12 samples.

Results

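The genes described here are 8 markers of the conducting airway epithelium, Scgb1a1, Scgb3a1, Scgb3a2, Cyp2f2, Cbr2, Muc5b, Foxj1 and Tppp3, of 21878 genes in a table from sorted mouse AT2 cells. AT2 cells are the surfactant-producing cells of the alveolus, so these markers belong mainly to neighbouring cell types. The genes were picked by name, and Scgb3a1 and Scgb3a2 were picked for their rise in Atg5-/- AT2-PBS, so their values in any comparison that uses the PBS libraries are given as a description, with no test. All 8 were found in the table, and 6 passed a filter of at least 1 FPKM in at least 3 libraries (10675 of the 21878 genes did). Muc5b and Foxj1 did not.

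The libraries fall into 4 groups of 3, all labelled C57BL/6. AT2-PBS and AT2-BLM are labelled wild type and came, per the study's methods, from Atg5 f/f mice given PBS or bleomycin (BLM, 2 U/kg, a drug that injures the alveolar epithelium). Atg5-/- AT2-BLM came from Nkx2.1Cre;Atg5 f/f mice, which lose the autophagy gene Atg5 wherever Nkx2.1 is or was active. Atg5-/- AT2-PBS carries the same genotype label, and the line and day behind it are not given in the sources used here. The other groups were taken at day 14. Mice used for BLM injury were 8 to 12 weeks old and male per the study's methods. Y-linked expression, given below, was nonetheless near 0 in AT2-BLM replicates 1 and 2 and Atg5-/- AT2-BLM replicate 1. Nkx2.1-driven Cre acts in the whole lung epithelium, airway cells included, so the deletion is not limited to AT2 cells. Cells were sorted as EpCAM+ and negative for CD31, CD34, CD45, CD24 and Sca-1. Whether a library is 1 mouse or a pool is not stated, so p-values measure the spread between libraries only. FPKM are fragments scaled by transcript length and by the mapped fragments of the library. No counts were used, so the depth is unknown and no counting interval is given.

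Club cells line the bronchioles, secrete secretoglobins and detoxify inhaled compounds through cytochrome P450 enzymes. Ciliated cells, specified by the transcription factor Foxj1, move mucus along the same epithelium. In mice some club-like cells lie at the junction of bronchiole and alveolus, and cells with both club and AT2 markers are known there. Among the 8 genes, Scgb1a1 (club cell secretory protein), Scgb3a1 and Scgb3a2 are secretoglobins, Cyp2f2 is a P450 enzyme, Cbr2 is a carbonyl reductase and Muc5b is a gel-forming mucin. Tppp3 is a tubulin-binding protein of ciliated cells. Cyp2f2 is also made by hepatocytes.

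On mm9 (NCBIM37, GENCODE annotation) Scgb3a1 lies at chr11:49477112-49478620 on the plus strand, Foxj1 at chr11:116192018-116196713 on the minus strand and Cbr2 at chr11:120590803-120593428 on the minus strand. Cyp2f2 lies at chr7:27904928-27918679 and Muc5b at chr7:149024975-149058990, both on the plus strand. Tppp3 lies at chr8:107991393-107995322 and Scgb1a1 at chr19:9158126-9162448, both on the minus strand.

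Upstream sequence is shown for 3 of the genes, Scgb3a1, Cyp2f2 and Cbr2. The source used held none for Scgb1a1, Muc5b, Foxj1 or Tppp3. Scgb3a1 and Cyp2f2 were higher in Atg5-/- AT2-PBS, and Cbr2 was not. Each line holds the 250 bases before the start of the gene in RefSeq (GRCm38.p6), 5′ to 3′ on the gene's own strand, at chr11:49663345-49663594 for Scgb3a1, chr7:27119705-27119954 for Cyp2f2 and chr11:120732022-120732271 for Cbr2. Capitals mark CAAGTG, the core that the lung factor NKX2-1 binds, or TGTTTNC, a forkhead core, on either strand.
Scgb3a1: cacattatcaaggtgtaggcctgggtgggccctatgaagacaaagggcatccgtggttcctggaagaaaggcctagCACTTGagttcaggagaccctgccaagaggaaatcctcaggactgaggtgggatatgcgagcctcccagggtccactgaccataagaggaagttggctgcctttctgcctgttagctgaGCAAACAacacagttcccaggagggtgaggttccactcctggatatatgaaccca
Cyp2f2: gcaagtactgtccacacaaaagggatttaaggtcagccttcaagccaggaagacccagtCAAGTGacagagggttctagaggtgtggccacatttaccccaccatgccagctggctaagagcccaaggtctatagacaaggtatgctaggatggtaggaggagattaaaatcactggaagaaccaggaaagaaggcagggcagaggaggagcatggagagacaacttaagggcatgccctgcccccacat
Cbr2: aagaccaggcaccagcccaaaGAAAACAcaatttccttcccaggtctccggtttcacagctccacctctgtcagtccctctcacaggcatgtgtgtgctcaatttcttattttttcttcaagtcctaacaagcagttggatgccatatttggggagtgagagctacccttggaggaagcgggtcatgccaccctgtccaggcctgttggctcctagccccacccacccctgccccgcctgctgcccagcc
Scgb3a1 holds 1 match to each motif and Cyp2f2 holds 1 match to CAAGTG, while Cbr2 holds 1 match to TGTTTNC. The motifs do not overlap in these windows. CAAGTG was found in 11.6% and TGTTTNC in 17.8% of 32851 RefSeq promoter windows of the same length. The motifs were chosen with these sequences in view, and a match is a description of letters only. For Scgb1a1, Muc5b, Foxj1, Tppp3 and Scgb3a2 no sequence is shown.

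The libraries hold abundant AT2 transcripts, but their markers do not all follow the sort. Lyz2 was listed at 15122 to 48723 FPKM, Sftpa1 at 4967 to 13567 FPKM and Napsa at 2032 to 3289 FPKM. Sftpc, the defining surfactant gene, was listed at 0 in 11 of 12 libraries and at 112570 FPKM in AT2-BLM replicate 2, so a listed 0 can be a failed estimate in this table. Ly6a, which encodes Sca-1, was listed at 7.36 to 16.8 FPKM in AT2-PBS, 368 to 754 FPKM in Atg5-/- AT2-PBS, 325 to 777 FPKM in AT2-BLM and 63.1 to 984 FPKM in Atg5-/- AT2-BLM, so AT2-PBS was the group that stood apart. Atg5 was listed at 6.01 to 12.5 FPKM in AT2-PBS and at 6.72 to 10.1 FPKM in Atg5-/- AT2-PBS, and the deleted exon cannot be separated in a value per gene. Eif2s3y, a Y-linked gene, was at 8.25 to 13.1 FPKM in AT2-PBS replicates 2 and 3, AT2-BLM replicate 3 and Atg5-/- AT2-BLM replicates 2 and 3, and under 1 FPKM in the other 7 libraries, which include all of Atg5-/- AT2-PBS. Differences of the 6 genes past the filter are given within these strata where a stratum holds both groups.

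Scgb1a1 ranged from 811 to 83587 FPKM. In AT2-PBS the libraries, given here and below in the order of their replicate numbers, held 11512, 11306 and 4776 FPKM. Atg5-/- AT2-PBS held 48354, 83587 and 22572 FPKM, AT2-BLM 2042, 811 and 4921 FPKM, and Atg5-/- AT2-BLM 1049, 2101 and 1753 FPKM. It was the most abundant transcript of all in Atg5-/- AT2-PBS replicates 1 and 2, and rank 49 of 21878 in AT2-BLM replicate 2. Its share of the summed FPKM ran from 0.148% in that library to 16.3% in Atg5-/- AT2-PBS replicate 2. The mean order was Atg5-/- AT2-PBS (51504 ± 30629 FPKM, SD, n = 3), followed by AT2-PBS with 9198 ± 3831, AT2-BLM with 2591 ± 2109 and, last, 1634 ± 536 for Atg5-/- AT2-BLM, and each neighbouring pair after the first overlapped in range.

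The small secretoglobins lay far below it. Scgb3a1 measured 18.4, 0 and 8.86 FPKM in AT2-PBS, against 90.5, 367 and 277 FPKM in Atg5-/- AT2-PBS. In the BLM groups it stood at 2.54, 0.474 and 5.97 FPKM (AT2-BLM) and 19.0, 1.05 and 2.02 FPKM (Atg5-/- AT2-BLM). The 3 Atg5-/- AT2-PBS libraries were the highest of all 12, as the choice of this gene fixed, and the other groups overlapped. Scgb3a2 followed Scgb1a1 closely, at 32.9, 26.8 and 11.9 FPKM in AT2-PBS, 140.1, 311 and 112 FPKM in Atg5-/- AT2-PBS, then 7.30, 2.12 and 14.3 FPKM in AT2-BLM and 1.615, 10.1 and 5.16 FPKM in Atg5-/- AT2-BLM. Within AT2-PBS replicate 3 was the lowest for Scgb1a1 and Scgb3a2, and within AT2-BLM replicate 3 was the highest for all of the secretoglobins.

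Cyp2f2 measured 188, 283 and 133 FPKM in AT2-PBS, 518, 713 and 430.45 FPKM in Atg5-/- AT2-PBS, then 104, 59.7 and 24.5 FPKM in AT2-BLM and 92.0, 53.4 and 45.0 FPKM in Atg5-/- AT2-BLM. Each group of PBS libraries stood above both BLM groups with no overlap, and the BLM groups overlapped each other. Cbr2 behaved differently. It measured 8111, 9764 and 9743 FPKM in AT2-PBS, overlapping with 9169, 9101 and 8928 FPKM in Atg5-/- AT2-PBS, then 6693, 5213 and 5118 FPKM in Atg5-/- AT2-BLM and 4841, 4119.5 and 1345 FPKM in AT2-BLM. It ranked between 4 and 26 among all genes in every library, so its level in these cells was of the order of the surfactant genes.

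Every AT2-BLM library was also below every other library for Tppp3. Its levels were 23.4, 22.5 and 38.6 FPKM in AT2-PBS, 25.1, 32.1 and 16.8 FPKM in Atg5-/- AT2-PBS, then 13.4, 17.7 and 13.7 FPKM in Atg5-/- AT2-BLM and 12.1, 8.59 and 7.51 FPKM in AT2-BLM. Foxj1, the master regulator of motile cilia, read 0.0648, 0 and 0 FPKM in AT2-PBS, 0.598, 0.798 and 0.700 FPKM in Atg5-/- AT2-PBS, then 0.0269, 0 and 0 FPKM in AT2-BLM and 0.0279, 0.0646 and 0.171 FPKM in Atg5-/- AT2-BLM. Muc5b read 0.0168, 0.00269 and 0 FPKM in AT2-PBS, 0.285, 0.617 and 0.703 FPKM in Atg5-/- AT2-PBS, then 0, 0.00244 and 0 FPKM in AT2-BLM and 0.0372, 0 and 0 FPKM in Atg5-/- AT2-BLM. Neither reached 1 FPKM in any of the 12 libraries, and both were highest in the 3 Atg5-/- AT2-PBS libraries. In bulk RNA, fewer cells of a type and less RNA per cell cannot be told apart.

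**Figure D1:**
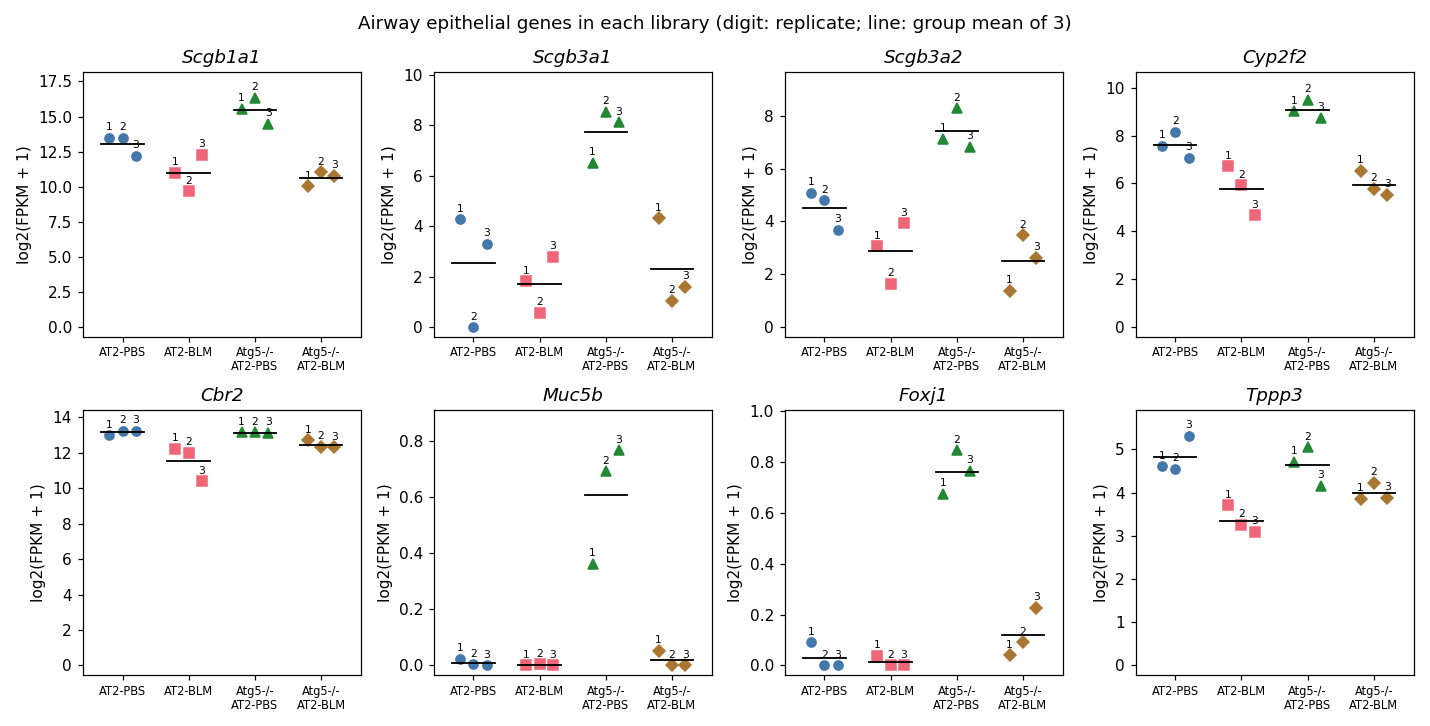
Level of each of the 8 genes as log2(FPKM + 1) (y axis) in 4 groups of 3 libraries (x axis); digits number the replicates and lines are group means. The 3 Atg5-/- AT2-PBS libraries sit above all others for Scgb1a1, Scgb3a1, Scgb3a2, Cyp2f2, Muc5b and Foxj1, and Cbr2 and Tppp3 overlap between the PBS groups.

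AT2-BLM against AT2-PBS asks what BLM injury changed in the surviving AT2 cells. Scgb1a1, Cyp2f2, Cbr2 and Tppp3, the 4 genes tested here, all fell. The change on the log2(FPKM + 1) scale was -2.08 for Scgb1a1 (standard error 0.64, adjusted p = 0.0425 by limma), to 0.236 of the control level. It was -1.82 for Cyp2f2 (0.45, adjusted p = 0.0194), -1.61 for Cbr2 (0.39, adjusted p = 0.0166) and -1.47 for Tppp3 (0.27, adjusted p = 0.00467). For Cyp2f2, Cbr2 and Tppp3 every AT2-BLM library lay below every AT2-PBS library, while for Scgb1a1 AT2-BLM replicate 3 (4921 FPKM) lay above AT2-PBS replicate 3 (4776 FPKM). Over all 10675 genes 11.3% were lower without overlap. The adjusted p stayed under 0.05 in 6 of 16 alternatives for Scgb1a1 (range 0.0193 to 0.186), in 12 of 16 for Cyp2f2 and for Cbr2 and in 15 of 16 for Tppp3.

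Calls follow the study's own criteria, which are p under 0.05 before adjustment together with a change of 1.4-fold or more. Under these, 7.77% of the 10675 tested genes were called lower and 20.6% higher with BLM, 17.4% were called with the adjusted p, and the median change of all genes was 0.17. Without rescaling 2202 genes were called higher and 829 lower. With quantile normalization the median was 0.003 and the calls were 1319 and 1373, with median-ratio scaling 1467 and 1303, and with scaling to Cdh1 986 and 1288. The 4 genes were called lower under each. Scgb3a1 and Scgb3a2, described only, had differences of -0.80 and -1.65 with overlapping ranges. Scgb3a1 turned to 0.08 without AT2-PBS replicate 1. Among libraries with Y-linked expression (2 AT2-PBS and 1 AT2-BLM) the differences were -0.58 for Scgb1a1, -2.94 for Cyp2f2, -2.86 for Cbr2 and -1.84 for Tppp3. Among those without it (1 and 2) they were -3.16, -1.24, -0.86 and -1.12 in the same order. The direction of these 4 genes held in both strata. Scgb3a1, described only, differed by 1.15 with Y-linked expression and by -3.09 without it, and Scgb3a2 by -0.31 and -2.74.

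Atg5-/- AT2-BLM against AT2-BLM asks what Atg5 loss changed in injured cells, and it shares no library with the comparison that chose Scgb3a1 and Scgb3a2, so 6 genes were tested. Cbr2 was higher by 0.91 (95% interval 0.07 to 1.76, adjusted p = 0.621 by limma) and Tppp3 by 0.63 (0.05 to 1.21, adjusted p = 0.621), and for both the groups did not overlap, as for 4.91% of all genes in this direction. Both were called and neither passed the adjustment. All genes gave 2.04% called higher and 3.12% called lower, and 0.00937% (1 gene) passed the adjusted p.

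Without AT2-BLM replicate 3, the library with the least Cbr2 (1345 FPKM), the Cbr2 difference was 0.33 and that of Tppp3 0.50, and neither was called. Neither was called without Atg5-/- AT2-BLM replicate 2 either. With Y-linked expression (1 AT2-BLM and 2 Atg5-/- AT2-BLM libraries) the differences were 1.94 and 0.96, and without it (2 and 1) 0.58 and 0.36. The secretory genes were not called. Their differences were -0.36 for Scgb1a1 (95% interval -1.75 to 1.03), 0.59 for Scgb3a1 (-1.78 to 2.95), -0.38 for Scgb3a2 (-1.77 to 1.01) and 0.17 for Cyp2f2 (-0.82 to 1.16). These intervals include both falls and rises of more than 1.4-fold. Leaving out 1 library turned the sign of each of the 4. With Y-linked expression their differences were -1.36, -1.49, -0.88 and 0.97 in the same order. Without it they were -0.30, 3.13, -0.96 and 0.22, so Scgb3a1 changed sign between the strata.

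Atg5-/- AT2-PBS against AT2-PBS compares the genotype labels without injury. The line and day of Atg5-/- AT2-PBS are not given, and none of its libraries had Y-linked expression. Genotype cannot be told apart from these here. Scgb1a1 was higher by 2.40 (standard error 0.64, adjusted p = 0.0276 by limma), 5.27-fold, and Cyp2f2 by 1.49 (0.45, adjusted p = 0.0571), 2.81-fold. Both were called, and only Scgb1a1 passed the adjustment. In both, every Atg5-/- library lay above every AT2-PBS library, as for 18.1% of all genes. Cbr2 and Tppp3 were not called, with differences of -0.02 (95% interval -0.86 to 0.83) and -0.19 (-0.77 to 0.39), and the sign of each turned with scaling to Cdh1. Over all tested genes 14.1% were called higher, 5.16% lower and 11.2% with the adjusted p.

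Scgb3a1 and Scgb3a2 differed by 5.19 and 2.90 here, which is the contrast they were chosen on. Foxj1 and Muc5b entered only a fit with no filter on low values, over 17615 genes. There Foxj1 was higher by 0.73 and Muc5b by 0.60. Both met the criteria for a call, as did 11.1% of genes in that direction. Both stayed under 1 FPKM in every library and near 0 in the AT2-PBS libraries, so these differences are a description. The scale with 1 added understates change at such low values.

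AT2-PBS replicate 1 was the control library that, like Atg5-/- AT2-PBS, lacked Y-linked expression. With a single control library the spread comes from the other groups, and that library is assumed to vary as they do. Against it alone, Scgb1a1 was higher by 1.97 and no longer called (adjusted p = 0.388 by limma, with a range of 0.0156 to 0.388 over the alternatives). Cyp2f2 was higher by 1.52 and still called (adjusted p = 0.319, range 0.0132 to 0.319). The descriptive differences of Scgb3a1 and Scgb3a2 were then 3.44 and 2.33. No Atg5-/- AT2-PBS library had Y-linked expression, so AT2-PBS replicates 2 and 3 have no match.

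Atg5-/- AT2-BLM against Atg5-/- AT2-PBS compares BLM with PBS under the Atg5-/- label. The line and day of the PBS group are not given, so BLM cannot be told apart from these here. Scgb1a1 fell by 4.84 (standard error 0.64, adjusted p = 0.000733 by limma), to 0.0349 of its PBS level, and Cyp2f2 fell by 3.14 (0.45, adjusted p = 0.00115), with no overlap for either. Tppp3 fell by 0.65 (0.27, adjusted p = 0.173), with overlapping ranges. Cbr2 was not called at -0.69 (95% interval -1.53 to 0.16), though every BLM library lay below every PBS library. Over all genes 11.8% were lower without overlap. Over all genes 10.7% were called lower, 7.66% higher and 8.65% with the adjusted p.

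Without Y-linked expression (3 Atg5-/- AT2-PBS libraries and 1 Atg5-/- AT2-BLM library) Scgb1a1 differed by -5.42, Cyp2f2 by -2.55, Cbr2 by -0.44 and Tppp3 by -0.79. Over all libraries compared Scgb3a1 and Scgb3a2 differed by -5.40 and -4.92, and in this stratum by -3.40 and -6.03 (description). With no filter Foxj1 was lower by 0.64 and Muc5b by 0.59, again a description of values near 0 FPKM. Both met the criteria for a call there, as did 8.18% of genes in that direction. Comparisons with PBS libraries share them: the high Atg5-/- AT2-PBS values enter both the genotype contrast and this one.

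The difference between the 2 BLM effects, tested as an interaction, was called for Scgb1a1 at -2.76 (standard error 0.90, adjusted p = 0.09 by limma), which did not pass the adjustment. It was not called for Cyp2f2 (-1.32, 95% interval -2.72 to 0.08), Cbr2 (0.93, -0.27 to 2.12) or Tppp3 (0.82, -0.0018 to 1.64). Over all genes 20.2% were called and 7.89% with the adjusted p. Scgb1a1 was not called in this test without AT2-PBS replicates 2 and 3 (-2.33, adjusted p = 0.407 by limma), where the other groups give the spread of the remaining AT2-PBS library.

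**Figure D2:**
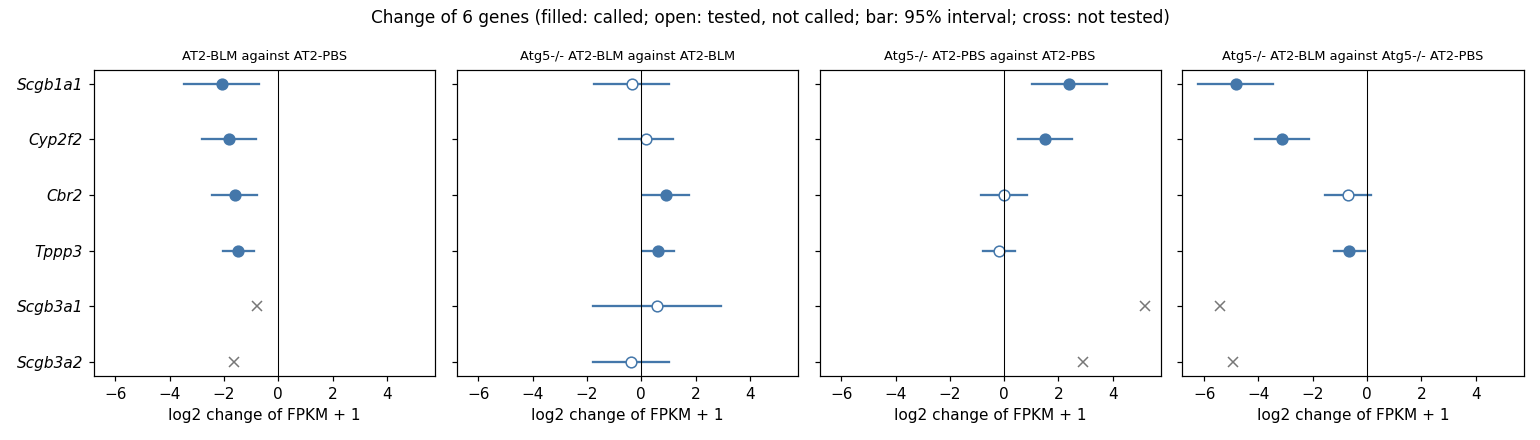
Change on the log2(FPKM + 1) scale (x axis) of 6 genes (rows) in 4 comparisons (panels); filled points were called, open points tested and not called, bars are 95% intervals and crosses have no test. Scgb1a1 and Cyp2f2 lie below 0 with BLM in both genotypes and above 0 with Atg5 loss in PBS, and Cbr2 and Tppp3 have filled points above 0 in the genotype comparison under BLM alone.

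A list of 20 other club cell genes, 18 of them past the filter, was read next to the 8. In Atg5-/- AT2-PBS 14 rose and 1 fell (Cckar), with a median change of 1.86 against 0.02 over all genes. Of all tested genes 14.1% were called higher there and 5.16% lower. The largest rises were Bpifa1, an airway surface protein (5.31, adjusted p = 0.0979 by limma), Reg3g, an antimicrobial lectin (3.62, adjusted p = 0.0126), and Bpifb1 (3.23, adjusted p = 0.01). Bpifa1 was at 120, 5.57 and 0 FPKM in AT2-PBS and 58.0, 408 and 2040 FPKM in Atg5-/- AT2-PBS, so its ranges overlapped. Of the 18, 16 would pass the filter without the Atg5-/- AT2-PBS libraries, and 12 of these rose and 1 fell. Against AT2-PBS replicate 1 alone, with the spread taken from the other groups, 11 of 18 were called higher and 0 lower. Aldh1a1, Cyp2a5, Gsta3, Cyp2b10 and Pon1 of this list are also hepatocyte genes. Pon1 did not rise with the others in Atg5-/- AT2-PBS (-0.88, not called).

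With BLM in Atg5-/- cells 16 of the 18 fell and 0 rose (median -2.25, all genes 0.06). Of all tested genes 10.7% were called lower there and 7.66% higher. Of the 16 that would pass the filter without the Atg5-/- AT2-PBS libraries, 14 fell. With BLM in control cells 7 fell and 2 rose (median -0.56, all genes 0.17), where 7.77% of all tested genes were called lower and 20.6% higher. The falls were led by Pon1, a lactonase (-4.19), Cckar, a peptide hormone receptor (-2.83), and Lypd2 (-1.75), and the rises were Cyp2b10 (1.42) and Gsta3 (1.24), which both metabolise foreign compounds. With Atg5 loss under BLM 1 was higher, Scgb1c1 (0.83), and 1 lower, Aldh1a1 (-0.93), and neither passed the adjustment. Of all tested genes 2.04% were called higher there and 3.12% lower.

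**Figure D3:**
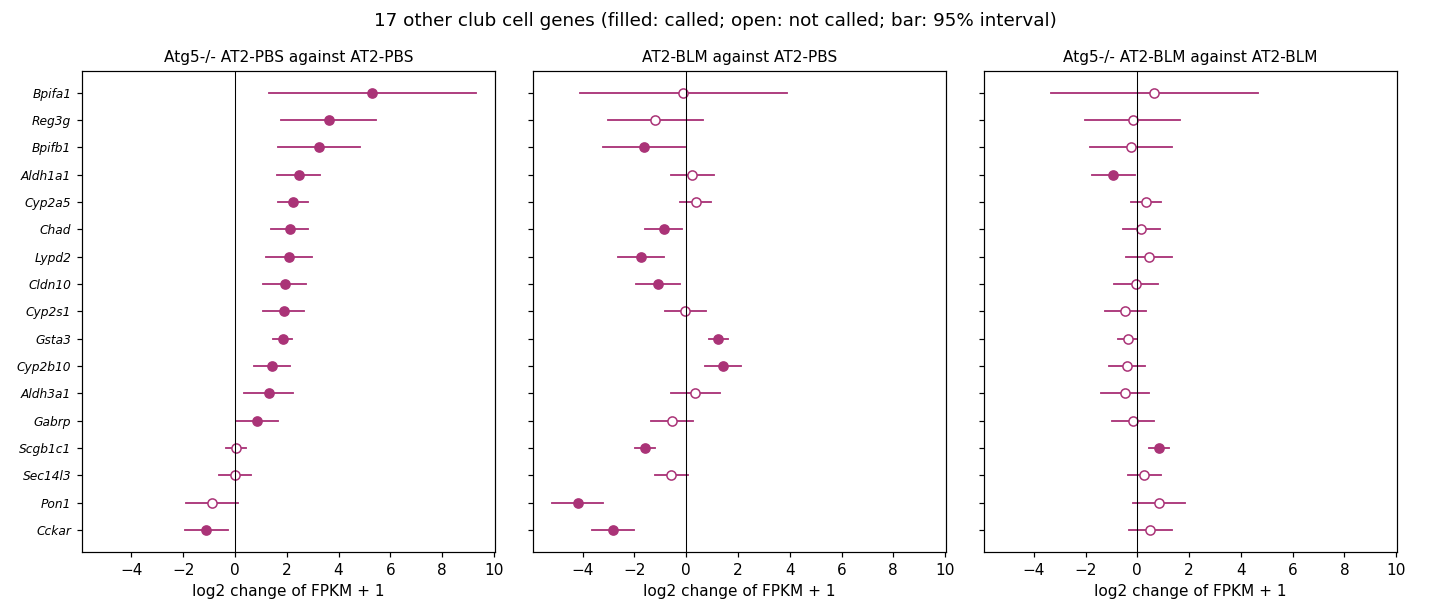
Change on the log2(FPKM + 1) scale (x axis) of 17 of the 18 other club cell genes (rows) in 3 comparisons (panels); filled points were called, open points were not, and bars are 95% intervals. In the left panel 13 filled points lie right of 0 and 1 left of it, and in the right panel 15 points are open.

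Of 37 genes of the ciliary axoneme, the motile core of cilia, 10 passed the filter. In Atg5-/- AT2-PBS 6 of these rose and 0 fell, led by Ccdc153 (2.22), Mlf1 (1.44) and the radial spoke gene Rsph1 (1.42). Of all tested genes 14.1% were called higher there. Only 6 of the 10 would pass without those libraries, and 3 of the 6 rose. Against that 1 library, under the same assumption on its spread, 2 of the 10 were called higher. Over all 37, every Atg5-/- AT2-PBS library lay above every AT2-PBS library for 16 genes and below for 0, where 16.7% of 17615 genes lay above. In Atg5-/- cells 6 of 10 fell with BLM, where 10.7% of all tested genes were called lower. Of the 6 that would pass the filter without the Atg5-/- AT2-PBS libraries, 3 fell. Dynlrb2, a dynein light chain, was the most abundant of the 37 and moved like Tppp3, down with BLM (-1.67) and higher with Atg5 loss under BLM (1.11, adjusted p = 0.582).

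Of 8 goblet cell genes 5 were tested, and 2 rose in Atg5-/- AT2-PBS, Tff2 (2.79) and Agr2 (1.30), while Muc5ac was listed above 0 in 1 library. Only 3 of the 5 would pass the filter without the Atg5-/- AT2-PBS libraries, and 1 of the 3 rose. Over all tested genes 14.1% were called higher there. Of 8 regulators of the ciliated cell fate 2 were tested, Rfx2 and Ccno, and 0 were called by limma in any of the 4 comparisons, with 0 at an unadjusted p under 0.05. Of 6 basal cell genes 1 passed the filter, Dapl1, and 0 would pass without the Atg5-/- AT2-PBS libraries. Its differences are therefore a description, 1.01 in Atg5-/- AT2-PBS and -0.91 with BLM in Atg5-/- cells. Of 5 neuroendocrine genes tested 0 were called by limma in Atg5-/- AT2-PBS (0 at an unadjusted p under 0.05). With BLM in Atg5-/- cells 4 fell, and 1 of the falls passed the adjustment, where 10.7% of all tested genes were called lower. Chga was at -2.33 (adjusted p = 0.222 by limma), with overlapping ranges. Only 3 of the 5 would pass the filter without the Atg5-/- AT2-PBS libraries, and 2 of the 3 fell.

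Among 6 transcription factors of secretory and alveolar cells, Foxa1 (-1.20) and Cebpa (-1.89) were lower with BLM in control cells. Foxa1 was lower in Atg5-/- AT2-PBS too (-1.07), and Nkx2-1 (0.70) and Foxa2 (0.82) were higher with BLM in Atg5-/- cells. None passed the adjustment. Foxa1 was at 33.5 FPKM in AT2-PBS replicate 3 and at 4.001 to 9.30 FPKM in the other libraries. Of 5 Notch pathway genes tested 0 were called by limma in Atg5-/- AT2-PBS (0 at an unadjusted p under 0.05), 2 fell with BLM in control cells, Jag1 (-0.69) and Notch2 (-0.51), and 1 fell in Atg5-/- cells, Notch2 (-0.79). Of all tested genes 7.77% were called lower with BLM in control cells and 10.7% in Atg5-/- cells.

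Markers of other cells moved with the airway genes in Atg5-/- AT2-PBS, where 14.1% of all tested genes were called higher. All 10 leukocyte genes tested rose there (12 listed), and their summed level was 16.3 to 90.4 FPKM in AT2-PBS and 442 to 1179 FPKM in Atg5-/- AT2-PBS. All 5 fibroblast genes tested rose (6 listed), with sums of 3.49 to 12.8 and 89.7 to 100.95 FPKM. Without the Atg5-/- AT2-PBS libraries 7 of the leukocyte and 4 of the fibroblast genes would pass the filter, and all of these rose. All 10 liver transcripts rose, with sums of 3.37 to 489 and 1833 to 3121 FPKM, and Apoa1 was listed at 0 in AT2-PBS replicate 3. Of 6 genes of the sort 4 rose, Ly6a (5.40), Ptprc (2.90), Cd34 (2.35) and Cd24a (1.73), whose products (Sca-1, CD45, CD34 and CD24) were sorted against. Epcam, whose product was sorted for, fell (-0.49) without overlap and did not pass the adjustment. Pecam1 was not called (0.95). Only 5 of the 6 would pass the filter without the Atg5-/- AT2-PBS libraries, and 3 of the 5 rose. Of 2 endothelial genes tested 0 were called by limma there (0 at an unadjusted p under 0.05).

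In the AT2 list 4 of 10 genes fell there and 1 rose, with summed levels of 63231 to 83820 FPKM in AT2-PBS and 62649 to 65400 FPKM in Atg5-/- AT2-PBS. Of these changes 2 falls and 0 rises passed the adjustment. Of all tested genes 5.16% were called lower in Atg5-/- AT2-PBS and 14.1% higher. In AT2-BLM, where 20.6% of all tested genes were called higher, the AT1 genes Pdpn (3.26), Hopx (2.10) and Cav1 (1.34) rose, 3 of 6 listed. Of 10 leukocyte genes 5 rose, with sums of 107 to 150.3 FPKM, and 1 of these rises passed the adjustment. There 7 of 10 liver transcripts also rose, with Mup3 at 3.54 and Apoa1 at 3.48 and sums of 208 to 681 FPKM. Only Cyp2e1 (2.86) passed the adjustment and had no overlap. AT2-PBS replicate 1 summed to 489 FPKM, above AT2-BLM replicates 2 (292 FPKM) and 3 (208 FPKM). Of 6 genes of the sort 4 rose, Ly6a (5.37), Pecam1 (1.76), Cd34 (1.48) and Ptprc (0.60), and Cd24a fell (-0.74). Of these only Ly6a and Cd34 passed the adjustment. In Atg5-/- cells with BLM the 10 leukocyte and 5 fibroblast genes and 7 of 10 liver transcripts fell, where 10.7% of all tested genes were called lower. The 7 leukocyte and 4 fibroblast genes that would pass the filter without the Atg5-/- AT2-PBS libraries all fell. Of the liver falls 0 passed the adjustment. The part of these markers in the airway gene differences was not tested.

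**Figure D4:**
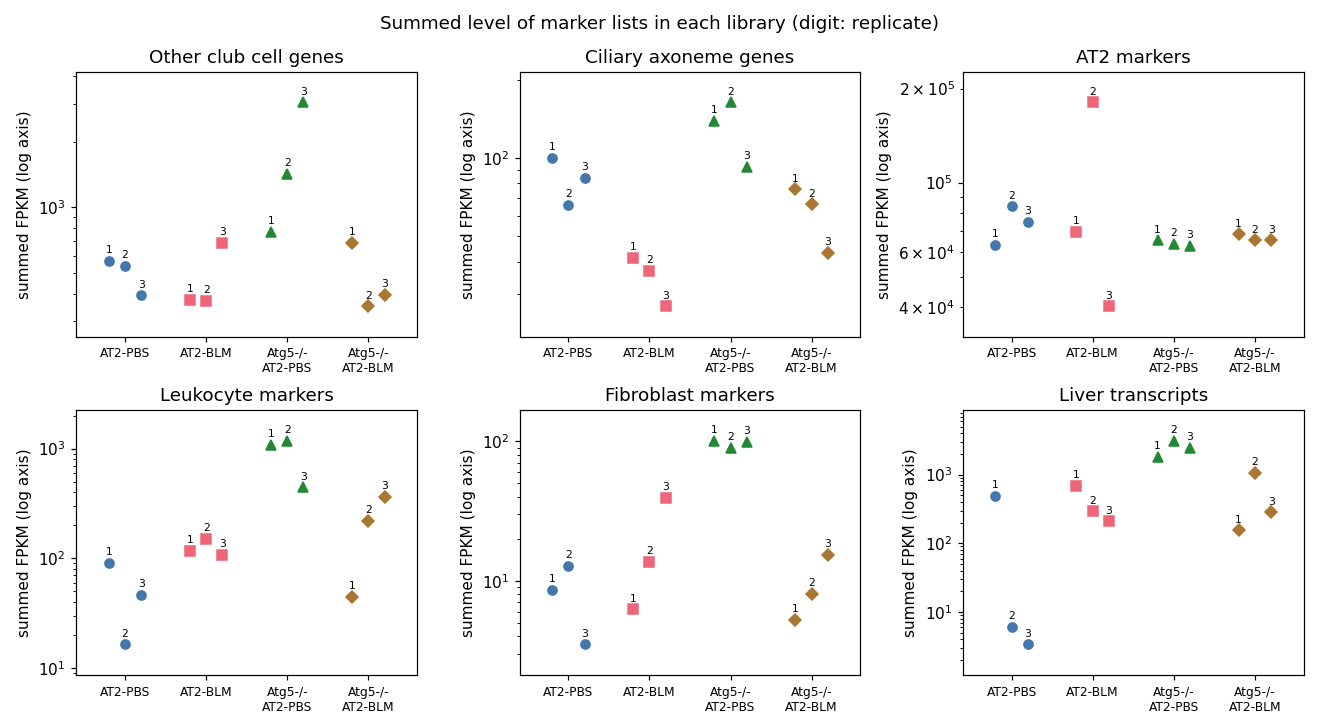
Summed FPKM of 6 marker lists (log y axis) in each library of the 4 groups (x axis); digits number the replicates. The 3 Atg5-/- AT2-PBS libraries are the highest of all 12 for the club, leukocyte, fibroblast and liver lists, and AT2-BLM replicate 2 stands out in the AT2 panel through Sftpc.

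The 8 genes did not move as 1 block. Over the 12 libraries, as a description, the Pearson correlation of log2(FPKM + 1) was 0.986 between Scgb1a1 and Scgb3a2, 0.837 between Scgb1a1 and Cyp2f2, 0.827 between Cbr2 and Tppp3, and 0.463 between Scgb1a1 and Cbr2. These points share the group differences above. Outside the 8, the genes most like Scgb1a1 and Scgb3a2 included Cldn10, a tight junction protein of club cells (0.960 and 0.961). The most alike to Scgb3a1 were Reg3g (0.936), Sdc2 (0.934) and Ccnd2 (0.914). For Cyp2f2 they were Lpl (0.958), Mgst2 (0.954) and Chad (0.919). Cbr2 was most like Pxmp2 (0.972), Npw (0.953) and Dhrs3 (0.943), and Tppp3 was most like Vgll4 (0.958), Tmem107 (0.938) and Thrsp (0.931). Lypd2 (0.941) came next for Scgb3a2.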

How the data were processed

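The authors sequenced mRNA libraries, and the deposited values are FPKM per gene from Cufflinks on mm9. The study's methods name STAR and a normalization with DESeq, the submitters' processing notes name HISAT2 and Trimmomatic 0.36, and whether the FPKM include the DESeq step is not given in the sources used here. Library numbers follow the titles, from which the description of AT2-PBS replicate 3 departs. FPKM summed to 390141 to 549169 per library.

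Log2(FPKM + 1) of the 10675 genes with at least 1 FPKM in at least 3 libraries entered limma 3.58.1 (R 4.3.3, empirical Bayes with a mean-variance trend), all 12 libraries in 1 fit of 4 groups, with Benjamini-Hochberg adjustment over all genes. The script was tested on simulated data. With 3 against 3 libraries an exact permutation test of single genes cannot go below p = 0.1, so none was used. The members, the gene lists (club, goblet, ciliated regulator, axoneme, basal, neuroendocrine, secretory factor, Notch, AT2, AT1, sort marker, leukocyte, fibroblast, endothelial, liver and Y-linked genes), motifs and tests were chosen with earlier results of these data known. Named genes are the 8 members, Atg5, markers of the sort, up to 3 called genes with the largest rise and fall per list and comparison, and the 3 genes most correlated with each member; other named genes were chosen after their values were seen. One gene of the club list is counted but not reported here by name. Alternatives were another pseudocount (0.1), no filter, quantile, median-ratio and Cdh1 scaling, a replicate block, a fit of the compared groups alone, no trend, the adjusted p and leaving out each library; a Y-linked covariate and leaving out AT2-PBS replicates 2 and 3 were added after seeing the data.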

Additional observations from a re-analysis of the deposited data

Results flagged for a closer look

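Scgb1a1 is listed here because the test of the difference between its BLM effects in the 2 genotypes was called, as it was for 20.2% of all genes. BLM changed it by -2.08 in control cells and by -4.84 in Atg5-/- cells on the log2(FPKM + 1) scale, a difference of -2.7579 (standard error 0.90, adjusted p = 0.09 by limma). It did not pass the adjustment, and the adjusted p was under 0.05 in 1 of 21 alternatives. It was listed at 22572 to 83587 FPKM in Atg5-/- AT2-PBS, at 4776 to 11512 FPKM in AT2-PBS, and its ranges overlapped between the BLM groups.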

How the results depend on the processing

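The 4 falls with BLM in control cells and the falls of Scgb1a1 and Cyp2f2 in Atg5-/- cells were called in the same direction under every alternative run. Numbers of called genes moved over 1.5 times in these settings: with the adjusted p they were 1856 (from 3031) with BLM in control cells, 1 (from 551) with Atg5 loss under BLM, 1195 (from 2058) with Atg5 loss in PBS, 923 (from 1962) with BLM in Atg5-/- cells and 842 (from 2156) for the interaction; without AT2-PBS replicates 2 and 3 they were 1924 with BLM in control cells and 1410 for the interaction. Of the 8 genes, those called with Atg5 loss under BLM (2) were 1 with no filter, Cdh1 scaling, only the compared groups, the replicate block or the Y-linked covariate, 0 with the adjusted p, and 0 to 2 with 1 library left out. With Atg5 loss in PBS (2) they were 4 with no filter and 1 with the adjusted p or without AT2-PBS replicates 2 and 3. With BLM in Atg5-/- cells (3) they were 5 with no filter, and without 1 library 2 to 3. For the interaction (1) they were 2 with the pseudocount of 0.1, Cdh1 scaling, the replicate block or the Y-linked covariate, 3 with no filter or quantile normalization, 0 with the adjusted p or without AT2-PBS replicates 2 and 3, and 1 to 3 with 1 library left out. Signs turned for genes that were not called. With Atg5 loss under BLM and 1 library left out, Scgb1a1 ran from -1.01 to 0.29, Scgb3a1 from -0.41 to 1.23, Scgb3a2 from -0.997 to 0.18 and Cyp2f2 from -0.38 to 0.64; AT2-BLM replicate 3 (Scgb1a1 0.29, Scgb3a2 0.15, Cyp2f2 -0.38) and Atg5-/- AT2-BLM replicate 1 (Scgb3a1 -0.41, Scgb3a2 0.18, Cyp2f2 -0.13) were the libraries whose absence turned them. With Atg5 loss in PBS Cbr2 was 0.38 and Tppp3 0.19 with Cdh1 scaling, and 0.16 and 0.029 without AT2-PBS replicates 2 and 3. With 1 library left out there, Cbr2 ran from -0.11 to 0.028 (above 0 without AT2-PBS replicate 2 or 3) and Tppp3 from -0.39 to 0.054 (above 0 without replicate 3 of either group). The cause was not tested.

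Higher against lower calls moved with scaling: Cdh1 scaling gave 2731 and 79 with Atg5 loss in PBS and 118 and 2444 with BLM in Atg5-/- cells, where quantile normalization gave 1208 and 1493 for the former. Same-numbered replicates did not deviate together in every pair (correlations of -0.239 to 0.227), so the numbers were not taken as pairs. The replicate block gave 3014, 558, 2055, 1959 and 2166 called genes in the order above. No read counts were used, so what the depth limits is unknown, and Foxj1 and Muc5b cannot be told from a floor in the libraries that list them at 0.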
